A study of Mus musculus with 16 samples.

Results

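Skeletal muscle of mice lacking the cannabinoid receptor CB1 in muscle fibres was compared after a high fat-high sugar diet (HFHS) and after a standard diet (SD). The members are 8 of the 16 one-colour Agilent arrays of the series, chosen by sample title: 4 arrays of the group CB1KO_SD and 4 of CB1KO_HFHS, described as biological replicates. All mice were male and 21 to 23 weeks old. In CB1KO mice the Cnr1 gene carries loxP sites and is cut by Cre driven from the ACTA1 promoter, which is active in skeletal muscle fibres, so other cells of the muscle would keep the receptor. SD supplied 16.7% of energy as fat and 12.4% as sugar, and HFHS 49.2% and 32.2%, each for 15 weeks. The remaining 8 arrays are control littermates, named wild-type (WT) although their Cnr1 is floxed too, on the same diets, 4 per diet. They show where CB1KO differed, and as all 16 arrays share 1 model they also enter the filter and the estimate of the spread behind each CB1KO p value. The labels list the breeding of both genotypes as Cre-positive, and among the sample characteristics the diet given for CB1KO_SD and WT_HFHS contradicts the titles. The titles, source names, descriptions and design text match each other and were followed. The labels also speak of an assignment to vehicle or S961, an insulin receptor antagonist, without saying which of these mice received which, and they do not name the muscle dissected. The slide holding the SD arrays held no HFHS array and the reverse, and the effect of diet therefore cannot be told apart from that of the slide in any value below. On both slides the WT arrays lay in row 1 and the CB1KO arrays in row 2, by the file headers. A difference in level between the genotypes therefore cannot be told apart from that of the row.

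CB1 is a G protein-coupled receptor for endocannabinoids, the lipid messengers whose tone is known to rise in obesity. A diet rich in fat and sugar is known to load muscle with lipid, to blunt its response to insulin and to favour fat cells and macrophages between the fibres. Genes of fast transcriptional programmes are among those described below. Immediate early genes such as Fos, Jun and Egr1 are switched on within minutes by growth factors, stretch, contraction or handling of the tissue, and heat shock genes are switched on by the factor HSF1 when proteins unfold.

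Levels are log2 intensities relative to the 75th percentile of the array, and differences are HFHS minus SD on that log2 scale. On the CB1KO arrays 56.7% to 69.2% of the spots were well above background, and saturation did not occur. Across genes, pairs of these 8 arrays correlated with r between 0.869 and 0.987, genes not being independent replicates. The targeted gene gave no check of the genotype. Cnr1 read -2.56, -3.69, -3.41 and -2.23 on the CB1KO_SD arrays and -1.49, -2.93, -2.44 and -2.91 on the CB1KO_HFHS arrays. Its signal was not well above background on every CB1KO array. The dimmest signal so called on CB1KO_SD replicate 2 was -2.74. The groups overlapped (difference 0.53 ± 0.456 SE, adjusted p = 0.721 by limma, exact permutation p = 0.314). WT arrays averaged -2.73 on SD and -2.30 on HFHS, within the range of CB1KO, and whether the single probe lies inside the deleted part was not known. All 12 genes that define skeletal muscle fibres, among them Acta1, Ckm and Ttn, stood well above background on each of the 8 arrays.

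Replicates 2, 3 and 4 of CB1KO_HFHS stood apart from every other array of the series. On these 3 arrays 11 genes lay more than 1 log2 unit below all 13 other arrays, and all 11 encode secreted products of the pancreas: Try4, Cpb1, Try5, Ins1, Pnlip, Zg16, Prss2, Amy2a5, Cpa1, Prss1 and Ins2. The insulin gene Ins1 read -0.58, -0.73, -0.42 and -0.56 on CB1KO_SD, -0.47 on CB1KO_HFHS replicate 1, and -3.43, -3.97 and -4.16 on replicates 2 to 4. Amylase (Amy2a5) read between 1.35 and 2.25 on CB1KO_SD and 2.32 on replicate 1, against -0.35, -0.78 and -0.95. So 13 arrays, WT included, held an even level of pancreatic transcripts from genes not known for expression in muscle, and 3 arrays held much less of them. In the same 3 arrays only 3 transcripts lay more than 1 log2 unit above all others, the sarcoplasmic reticulum peptide sarcolipin (Sln, by 2.49), Oc90 (by 1.18) and XM_006513889 (by 1.59). The summed intensity of 21 pancreatic genes ran from 7.88 to 11.3 on CB1KO_SD and from 1.89 to 12.8 on CB1KO_HFHS, and 16 of the 21 were lower on HFHS at an unadjusted p under 0.05, as were 4.22% of all genes. This list was chosen after the array values were seen, and whether what set these 3 arrays apart also bears on other genes was not tested beyond the values given below with and without replicate 1. Signal spread set a further pair of arrays apart. CB1KO_SD replicate 2 was the narrowest, with an SD of log2 intensities of 2.89, and CB1KO_HFHS replicate 1 the widest, with 3.97, the remaining 6 CB1KO arrays lying between 3.44 and 3.62.

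**Figure D1:**
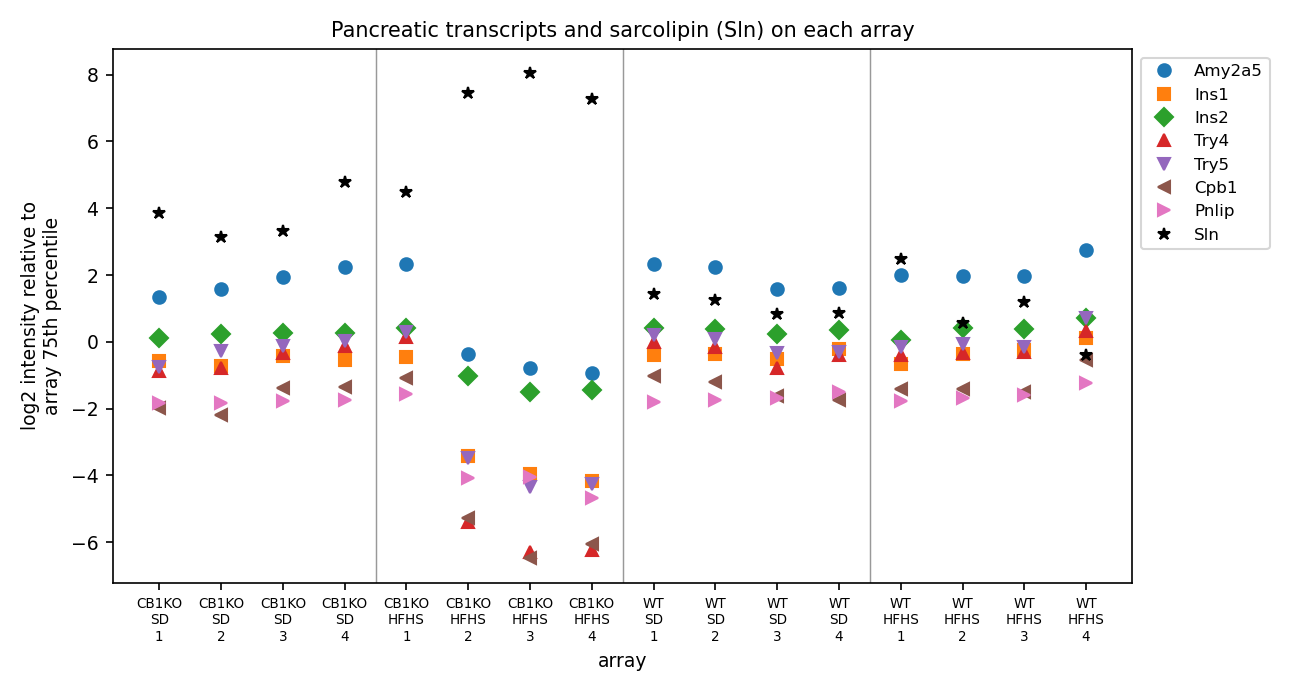
Log2 intensity relative to the array's 75th percentile (y axis) of 7 pancreatic genes and of sarcolipin (Sln) on each of the 16 arrays (x axis, 4 per group). CB1KO_HFHS replicates 2, 3 and 4 lie below all other arrays in the pancreatic genes, Ins1 reading -3.43 to -4.16 there, and above them in Sln, at 7.28 to 8.04.

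Few single genes separated the diets in CB1KO muscle beyond the spread of the arrays. Of 29011 genes tested, 8 passed an adjusted p of 0.05 (0.0276% of genes), 4 higher and 4 lower on HFHS (0.0138% each), and 2780 had an unadjusted p under 0.05 (9.58%). The 4 arrays of each diet did not overlap for 719 genes higher on HFHS (2.48%) and 363 lower (1.25%). Of the 8 called genes, 3 carry a symbol: the chaperone gene Hspa1a and Dbndd1 fell and the small GTPase gene Rab13 rose. The count depends on the arrays used. With the 8 CB1KO arrays alone in the model 0 genes passed by limma (1623 at an unadjusted p under 0.05), so the 8 calls rest on a spread estimated with the WT arrays. With WT kept, the count was 28 genes without CB1KO_HFHS replicate 1 (6 of the 8 among them), 15 without CB1KO_SD replicate 1, 2 without CB1KO_SD replicate 2, 3 without CB1KO_HFHS replicate 4, and 0 by limma without CB1KO_SD replicate 3, CB1KO_HFHS replicate 2 or CB1KO_HFHS replicate 3 (2455, 2874 and 2487 genes at an unadjusted p under 0.05). With CB1KO_HFHS replicate 1 alone in its group 2 genes passed, neither of them among the 8.

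The largest called difference was that of Hspa1a, which encodes the stress-inducible heat shock protein 70. Its level was 1.47, 2.50, 2.09 and 2.79 on the CB1KO_SD arrays and -1.70, -0.91, -1.07 and -0.21 on the CB1KO_HFHS arrays. Every SD array lay above every HFHS array, and HFHS replicate 1, which kept its pancreatic transcripts, was the lowest of the 4. Hspa1a fell by 3.18 ± 0.389 (SE), a 9.09-fold lower intensity (adjusted p = 0.0201, limma). With the CB1KO arrays alone in the model its adjusted p was 0.385. Leaving out any one of the 16 arrays kept the difference between -3.44 and -2.94. The adjusted p rose to 0.0503 without CB1KO_SD replicate 2, 0.0897 without CB1KO_SD replicate 3, 0.0767 without CB1KO_HFHS replicate 2 and 0.104 without CB1KO_HFHS replicate 3. With HFHS replicate 1 alone in its group the difference was -3.91 (adjusted p = 0.0788). In WT muscle Hspa1a was low on both diets, at -1.15, -1.05, -1.20 and -1.33 on SD and -1.43, -0.04, -0.04 and -1.40 on HFHS. The diet effect in CB1KO minus that in WT was -3.64, with the smallest p of all genes for that difference (1.23e-05), but it did not pass (adjusted p = 0.358). The neighbouring copy Hspa1b, nearly identical in sequence, has no probe here under its name, so the signal may belong to both.

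Dbndd1, a dysbindin domain gene, read -2.86, -2.82, -2.79 and -2.92 on SD and -4.29, -4.19, -4.08 and -4.44 on HFHS. The groups were tight and far apart, and Dbndd1 fell by 1.41 ± 0.181 (adjusted p = 0.0201, limma), although it stood well above background on only 3 arrays of each diet. Rab13, which directs vesicles to cell junctions, read -2.54, -2.41, -2.83 and -2.37 on SD and -1.82, -1.77, -1.52 and -1.59 on HFHS, and rose by 0.87 ± 0.128 (adjusted p = 0.0428). HFHS replicate 1 lay on the same side as replicates 2 to 4 in both genes. These calls were less stable than that of Hspa1a: of up to 29 alternatives, 12 ended the call of Dbndd1 and 23 that of Rab13, against 7 for Hspa1a. Under quantile normalization the difference was -0.99 for Dbndd1 (adjusted p = 0.269) and 1.12 for Rab13 (adjusted p = 0.179), and with the CB1KO arrays alone the adjusted p was 0.253 and 0.676. Leaving out any one WT array also ended the call of Rab13. WT levels of Rab13 ran from -2.90 to -2.43 over both diets, near CB1KO_SD.

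The other 5 called features have no gene symbol. AK080805 rose by 1.01 (adjusted p = 0.0203) and the probe A_55_P2055432 fell by 0.83 (adjusted p = 0.0428), the latter with a WT difference of -0.75. The array also carries probes for intergenic transcribed regions, placed on the mm9 build. The region at chr15:97856041-97867907 (reverse strand) rose by 1.16 (adjusted p = 0.0201) and that at chr10:81846505-81863606 (forward strand) rose by 0.96 (adjusted p = 0.0428). The region at chr3:88409887-88421423 (forward strand) fell by 1.01 (adjusted p = 0.0428). For the chromosome 15 region a second probe differed by 0.28 only. None of these 5 passed under the 3 other scalings.

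**Figure D2:**
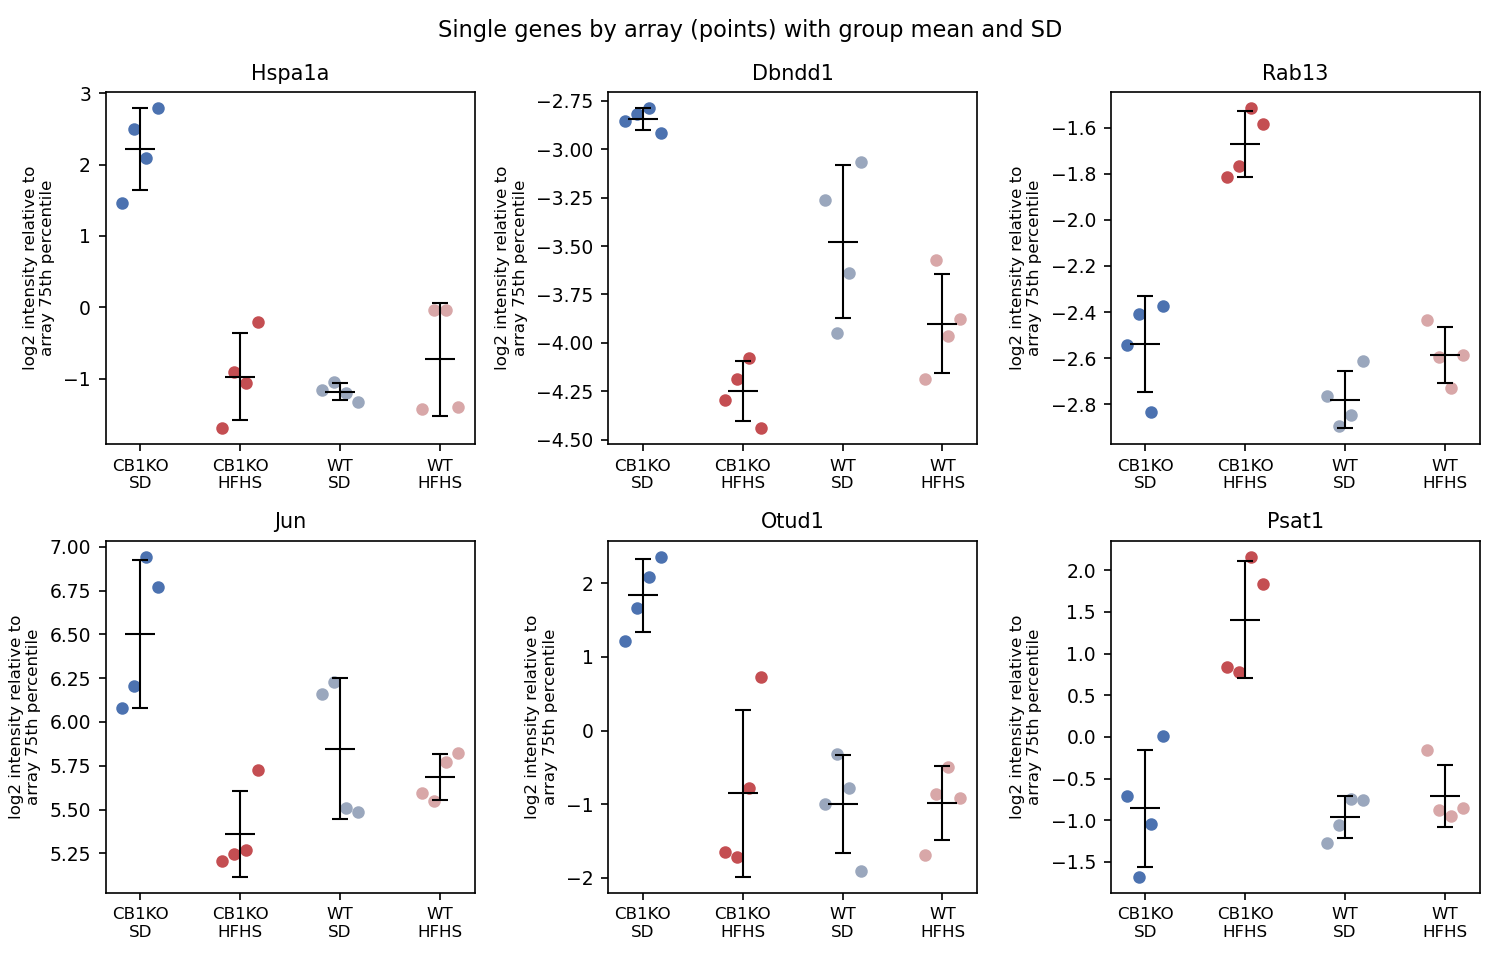
Log2 intensity relative to the array's 75th percentile (y axis) of 6 genes in the 4 groups (x axis), with 1 point per array and a black bar for the group mean and SD (n = 4). CB1KO_SD and CB1KO_HFHS do not overlap in any panel, and in Hspa1a and Otud1 the CB1KO_SD arrays alone lie above 1.

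No other heat shock gene passed the threshold. Of 25 heat shock genes tested, 1 was called (Hspa1a, lower), and 4 were lower on HFHS with arrays that did not overlap, against 1.25% of all genes. The J-domain co-chaperone Dnajb1, which hands unfolded proteins to HSP70, read 3.0, 4.17, 5.06 and 5.62 on SD and 2.37, 1.98, 2.58 and 2.75 on HFHS (difference -2.04, adjusted p = 0.13). Its relative Dnajb4 read 0.68, 1.06, 1.38 and 1.26 against 0.04, 0.33, 0.19 and 0.63 (-0.80, adjusted p = 0.118). The small heat shock protein gene Hspb1, one of the brightest here, read 7.51, 7.63, 7.98 and 8.30 against 7.26, 7.27, 7.53 and 7.39, where HFHS replicate 3 just exceeded SD replicate 1 (-0.49, adjusted p = 0.318). In contrast the constitutive HSP70 gene Hspa8 differed by 0.08, Hsph1 by -0.04, Bag3 by 0.12 and Hspb8 by -0.01, and the list median was -0.17 (-0.28 without SD replicate 2, -0.10 without SD replicate 3 and -0.067 without SD replicate 4), against -0.07 for all genes and 0.02 for the same list in WT.

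The RefSeq promoter windows (GRCm38.p6, from 250 bases before to 50 after the annotated start, 5′ to 3′) of 2 of these genes are shown for the inverted heat shock element half-sites they hold. Capitals mark GAANNTTC or TTCNNGAA, both of which read the same on either strand. Hspa1a lies on the minus strand, its window being chr17:34972107-34972406 with 1 match, and Hspb1 on the plus strand, with 2 matches in chr5:135887669-135887968.
Hspa1a: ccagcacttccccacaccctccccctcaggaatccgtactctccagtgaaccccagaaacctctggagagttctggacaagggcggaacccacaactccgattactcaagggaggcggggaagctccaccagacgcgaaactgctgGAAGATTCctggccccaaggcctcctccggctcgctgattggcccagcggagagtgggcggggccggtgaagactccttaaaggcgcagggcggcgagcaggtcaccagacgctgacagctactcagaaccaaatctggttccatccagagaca
Hspb1: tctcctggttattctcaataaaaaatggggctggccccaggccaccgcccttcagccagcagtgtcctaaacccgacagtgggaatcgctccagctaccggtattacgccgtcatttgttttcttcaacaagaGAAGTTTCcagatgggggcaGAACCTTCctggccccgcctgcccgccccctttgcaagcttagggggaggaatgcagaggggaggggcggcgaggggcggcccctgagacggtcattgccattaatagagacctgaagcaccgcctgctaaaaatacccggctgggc
Of 32851 promoter windows of this length, 15.1% held either motif. Counted by gene the share was 17.0%, and of 20 heat shock list genes with a window 12 held one, including members that hardly differed between the diets, such as Bag3, Hsph1 and Hspb8. A match is a description of the letters in the window and no evidence of binding.

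Most immediate early genes, and the MAP kinase feedback genes induced with them, had a lower mean level on HFHS. None of 31 tested members was called, but 21 had a lower level on HFHS at an unadjusted p under 0.05 (4.22% of all genes did) and 1 a higher level (Dusp4), and 13 had arrays that did not overlap in the lower direction (1.25% of all genes). The median difference of the list was -1.41, and 29 of 31 members lay below zero, as did 17244 of all 29011 genes. In WT the median was -0.38, also with 29 of 31 below zero (17137 of all genes). The largest differences belonged to the AP-1 subunits Fos and Fosb and the zinc finger factor Egr1, described here after their values were seen, as are Egr2 and the members listed with them.

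Fos read 4.67, 4.73, 5.15 and 5.54 on CB1KO_SD and -0.88, -0.48, 1.65 and 3.54 on CB1KO_HFHS (difference -4.07 ± 1.15 SE, adjusted p = 0.233). The SD arrays were close together, while the HFHS arrays spread over more than 4 log2 units. Egr1 read 4.70, 3.85, 5.01 and 5.79 against 0.60, 0.69, 0.77 and 3.57 (-3.43, adjusted p = 0.205), replicate 4 of HFHS again being highest. Fosb differed by -3.71 (adjusted p = 0.232) and Egr2 by -1.89 (adjusted p = 0.157). Members with smaller but steadier differences had the lower p values. Jun, the partner of Fos in AP-1, read 6.08, 6.21, 6.94 and 6.77 on SD and 5.21, 5.24, 5.27 and 5.73 on HFHS, which do not overlap (-1.14 ± 0.227, adjusted p = 0.114). The stress factor Atf3 read 2.12, 3.51, 3.99 and 4.05 against -0.64, 0.07, 0.28 and 2.02 (-2.99, adjusted p = 0.13). Ier2 differed by -1.94 (adjusted p = 0.144) and Ier5 by -0.59 (adjusted p = 0.149).

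The mean over the 31 members was 1.75, 1.84, 2.12 and 2.50 on the CB1KO_SD arrays and -0.25, 0.03, 0.89 and 1.64 on the CB1KO_HFHS arrays. The lowest HFHS array was replicate 1, and the list median was -1.90 with that array alone in its group and -1.23 without it. On WT arrays the mean over the 31 members ran from 0.14 to 1.42 on SD and from -0.12 to 0.69 on HFHS. Every WT array thus lay below every CB1KO_SD array, while CB1KO_HFHS overlapped WT. For Fos, WT arrays were split within a diet: it read 3.52 and 4.59 on WT_SD replicates 1 and 2, against 0.20 and 0.56 on replicates 3 and 4. For 6 of the 31 genes the diet effect was lower in CB1KO than in WT at an unadjusted p under 0.05 (1.53% of all genes), among them Ier5 (limma), and none passed adjustment. How the tissue was handled at collection is not recorded in the labels and its part in these levels was not tested.

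**Figure D3:**
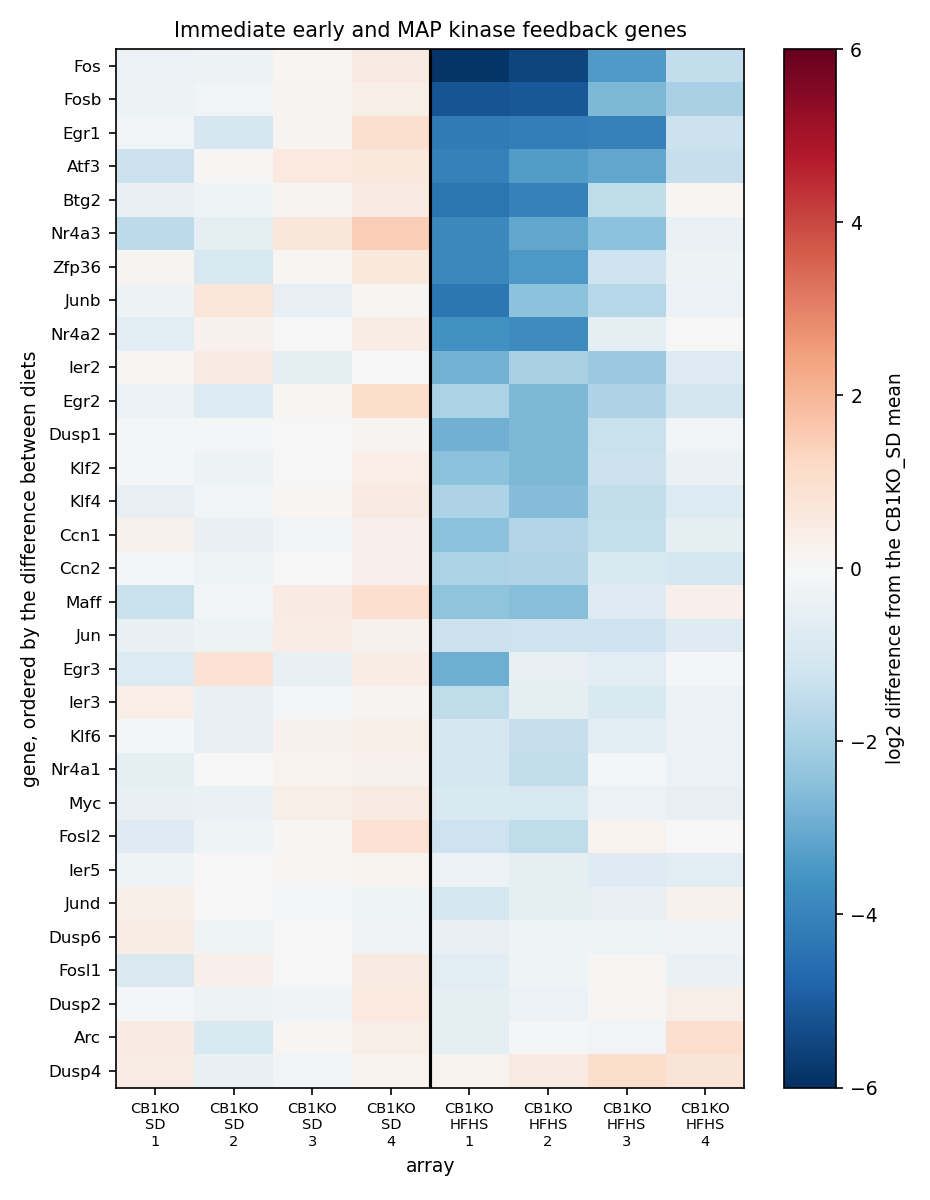
Log2 difference of each array from the CB1KO_SD mean (colour) for 31 immediate early and MAP kinase feedback genes (rows, ordered by the difference between diets) on the 8 CB1KO arrays (columns). Blue, lower than the SD mean, fills most of the HFHS columns and is palest in replicate 4, while Arc (0.05) and Dusp4 (0.65) do not share it.

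For the gene with the smallest p value of the list, the promoter window is shown because AP-1 is known to act on the Jun promoter itself. Capitals mark TGACNTCA or TGANGTCA, each the other's reverse complement, with 1 match in chr4:95052173-95052472 (minus strand, RefSeq, GRCm38.p6).
Jun: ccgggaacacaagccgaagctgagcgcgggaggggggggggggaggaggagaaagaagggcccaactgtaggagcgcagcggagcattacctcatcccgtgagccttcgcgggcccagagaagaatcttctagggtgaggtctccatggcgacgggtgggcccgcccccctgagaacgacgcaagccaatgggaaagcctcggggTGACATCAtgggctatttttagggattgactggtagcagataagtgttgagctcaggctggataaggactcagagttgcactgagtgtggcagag
The motif was present in 8.83% of all windows, in 10.02% of genes with a window and in 5 of the 24 list members with a window (Btg2, Dusp1, Jun, Klf6 and Maff), so most list members with a window, Fos and Fosb among them, do not hold these letters in it.

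Interleukin 6, named in the title of the series, is a cytokine that contracting muscle secretes and that signals through STAT3. Il6 read -1.77, -2.76, -0.95 and 0.98 on CB1KO_SD and -3.44, -3.53, -3.52 and -2.14 on CB1KO_HFHS. Its signal was not well above background on every CB1KO array. The dimmest signal so called on CB1KO_SD replicate 2 was -2.74. One HFHS array (replicate 4) overlapped the SD range, and the difference of -2.03 ± 0.615 did not pass (adjusted p = 0.262 by limma, exact permutation p = 0.0571, the smallest possible being 0.0286). It was -1.33 without CB1KO_SD replicate 4 and -2.32 with HFHS replicate 1 alone. WT arrays lay between -3.91 and -2.70 on both diets, a range that holds SD replicate 2 and HFHS replicates 1 to 3 of CB1KO. The STAT3 target and feedback inhibitor Socs3 read 3.02, 1.60, 3.64 and 5.22 on SD and 0.56, -0.08, 0.65 and 2.17 on HFHS (-2.54, adjusted p = 0.221). The acute-phase factor Cebpd differed by -1.53 and the cytokine signalling inhibitor Socs2 by -0.68 (adjusted p = 0.452 and 0.455). Of 22 genes of the IL-6 and STAT3 list none was called, 4 were lower at an unadjusted p under 0.05 (4.22% of all genes) and the median was -0.27, or -0.13 without HFHS replicate 1 and -0.15 without SD replicate 4.

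Cxcl1, a neutrophil attractant, read 0.72, -0.79, 0.37 and 1.58 on SD and -4.02, -2.76, -3.19 and -0.85 on HFHS (-3.17, adjusted p = 0.152), without overlap. Nfkbiz, a nuclear regulator of NF-kB target genes that includes Il6, read -0.56, -0.49, -1.29 and -0.96 against -2.66, -1.76, -2.22 and -1.68 (-1.26, adjusted p = 0.0898). Il1b differed by -1.19 (adjusted p = 0.363). The chemokines went both ways: Ccl8, which draws monocytes, read 1.72, -0.29, -0.62 and 1.37 on SD and 3.90, 3.35, 3.38 and 1.50 on HFHS (2.49, adjusted p = 0.313), and Ccl5 differed by 0.93 (adjusted p = 0.383). None of 21 cytokine genes was called. At an unadjusted p under 0.05, 5 of them were higher (5.36% of all genes) and 2 lower (4.22%). Prostaglandin synthase 2 (Ptgs2), which also oxidises endocannabinoids, differed by -2.16 (adjusted p = 0.236) without overlap, while the endocannabinoid list as a whole had a median of 0.05 over 15 genes, which turned to -0.070 without SD replicate 2.

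Myostatin, the secreted brake on muscle growth, is also named in the title. Mstn read 1.41, 2.24, 3.20 and 2.93 on CB1KO_SD and 2.50, 1.37, 1.74 and 1.42 on CB1KO_HFHS. The groups overlapped and the difference of -0.69 ± 0.432 did not pass (adjusted p = 0.641, exact permutation p = 0.229). With HFHS replicate 1 alone in its group it was 0.059. In WT the difference was -0.44. The receptor-pathway inhibitor Smad7 differed by -0.62 and the myostatin antagonist Wfikkn2 by -0.51 (adjusted p = 0.402 and 0.459), and none of 19 genes of the myostatin and activin list was called.

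Several other genes separated the 8 arrays without overlap but missed the threshold, some lower and some higher on HFHS. Otud1, a deubiquitinase, read 1.22, 1.66, 2.09 and 2.36 on SD and -1.64, -1.71, -0.77 and 0.72 on HFHS (-2.69, adjusted p = 0.0898), with all WT arrays below 0, as for Hspa1a. Has1, which makes hyaluronan, read -0.54, -0.18, -0.16 and 1.71 against -3.57, -3.17, -3.91 and -1.76 (-3.31, adjusted p = 0.115). The matrix protease gene Adamts1 differed by -1.21, the AMPK-related kinase gene Nuak1 by -1.04, the calcium-activated potassium channel gene Kcnn2 by -1.53 and the sphingolipid enzyme gene Degs2 by -0.92, at adjusted p values from 0.0856 to 0.114.

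Among the higher genes Ubd, a ubiquitin-like modifier induced by cytokines, was close to background on SD and clearly above it on HFHS. It read -5.47, -4.56, -3.85 and -5.03 on CB1KO_SD, well above background on 1 array there, and 1.52, -1.28, -0.68 and -0.28 on CB1KO_HFHS (4.55, adjusted p = 0.0695, a size that the dim SD signals leave imprecise). WT showed a difference of 3.55 in the same direction (adjusted p = 0.393). Psat1, an enzyme of serine synthesis, read -0.71, -1.68, -1.04 and 0.01 on SD and 0.83, 0.78, 2.17 and 1.84 on HFHS (2.26, adjusted p = 0.0695). A second, dimmer Psat1 probe differed by 0.28. All WT arrays lay at or below -0.16, so CB1KO_HFHS was the high group. Phgdh, the first enzyme of that pathway, differed by 0.85 and the stress-secreted factor Gdf15 by 1.25 (adjusted p = 0.436 and 0.41), while Ppp1r15a, which ends the integrated stress response, differed by -0.76 (adjusted p = 0.33). The list of integrated stress response genes therefore had no common direction, with 11 of 20 above and 9 below the median gene.

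Tmem229b, a membrane protein gene, read 0.99, 0.33, 0.34 and 0.72 against 1.59, 1.63, 1.76 and 1.92 (1.13, adjusted p = 0.0695), and the cell cycle factor E2f2 read 0.55, -0.13, 0.43 and 0.79 against 1.60, 1.47, 1.89 and 1.96 (1.32, adjusted p = 0.0867). The coactivator gene Cited1 differed by 1.28, the kinase gene Cdk20 by 0.83, the zinc finger gene Zfp329 by 0.55, Plekhh1 by 1.90 and Dnajc5g by 2.27, at adjusted p values from 0.0856 to 0.0989. Igfbp5, which binds insulin-like growth factors, read 4.67, 4.36, 4.52 and 4.48 on SD and 5.47, 5.65, 5.15 and 5.19 on HFHS (0.86, adjusted p = 0.13), a small difference between tight groups. Apln, a muscle-secreted peptide gene, differed by 1.26 (adjusted p = 0.148).

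Of 22 genes of the neuromuscular junction and of the response to loss of nerve input, 15 had a positive difference, and none was called. At an unadjusted p under 0.05, 5 were higher on HFHS (5.36% of all genes) and 1 lower (4.22%). The arrays did not overlap for 3 in the higher direction (2.48% of all genes) and 0 in the lower (1.25%). The list median was 0.13, but -0.14 with HFHS replicate 1 alone in its group. The acetylcholine receptor subunit gene Chrna1 read 3.88, 2.69, 2.77 and 4.07 on SD and 3.50, 4.87, 5.57 and 5.43 on HFHS (1.49, adjusted p = 0.25), higher on replicates 2 to 4 but not on replicate 1. Chrnb1 differed by 0.55 (adjusted p = 0.241) and the growth arrest gene Gadd45a by 0.54 (adjusted p = 0.279), whereas Dach2, a repressor in the denervation pathway, differed by -1.87 (adjusted p = 0.394). Sarcolipin, which inhibits the calcium pump of the sarcoplasmic reticulum, read 3.85, 3.14, 3.32 and 4.79 on SD, 4.47 on HFHS replicate 1 and 7.45, 8.04 and 7.28 on replicates 2 to 4 (3.04, adjusted p = 0.149). With replicate 1 alone the Sln difference was 0.70, and without it Sln passed (3.81, adjusted p = 0.0194), so the value rests on the 3 arrays that stand apart in pancreatic transcripts.

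Slow-twitch fibre genes varied more among mice of 1 group than between the diets. The slow myosin heavy chain gene Myh7 read 6.04, 4.23, 7.07 and 4.64 on SD and -3.69, 6.41, 1.39 and 1.40 on HFHS (-4.12 ± 2.13, adjusted p = 0.561). HFHS replicate 1 hardly held this transcript and replicate 2 was as high as the SD arrays. The mean over 17 slow-twitch genes followed it, at 3.89, 2.81, 3.86 and 3.05 on SD and -0.83, 4.14, 2.06 and 2.64 on HFHS. The median difference of the list was -0.92, but -4.33 with replicate 1 alone, -0.39 without it and -1.51 without replicate 2, and 0.98 in WT. Sln, counted in that list, ran against it. Fewer fibres of a type and less of its RNA per fibre cannot be told apart in whole muscle, here or for the cell types below.

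Fuel genes differed little. All 42 respiratory chain and ATP synthase subunits had a negative difference, as did 17244 of all 29011 genes. The subunits had a median of -0.23 and a range from -0.36 to -0.04, and 40 lay below the median gene. None was called, and 3 of the 42 were lower at an unadjusted p under 0.05, as were 4.22% of all genes. Cox4i1, a subunit of cytochrome oxidase, read 8.20, 8.22, 8.40 and 8.36 on SD and 7.75, 8.30, 7.93 and 7.92 on HFHS (-0.32, adjusted p = 0.495), and Ndufb9 of complex I differed by -0.31 (adjusted p = 0.433). The fatty acid uptake and oxidation list was alike, 29 of 30 negative with a median of -0.25. Its lowest member was the thioesterase gene Acot1, which read 3.11, 2.08, 3.15 and 2.98 on SD and -1.39, 2.33, 1.46 and 1.72 on HFHS (-1.80, adjusted p = 0.468), HFHS replicate 1 being far below the rest. In WT the medians of these lists were positive, 0.07 and 0.31. For 9 of the 30 oxidation genes the diet effect was lower in CB1KO than in WT at an unadjusted p under 0.05 (1.53% of all genes), none after adjustment. Both lists were low together with the slow-twitch genes on HFHS replicate 1, whose part in the result was tested only by leaving it out. With that array alone their medians were -0.49 and -0.72. Without it they were -0.14 and -0.12, against -0.01 for all genes, and without replicate 2 the oxidation median was -0.41.

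Among glucose and insulin genes few separated the diets. The glycogen branching enzyme gene Gbe1 differed by -0.74 and the phosphorylase kinase subunit gene Phkg1 by 0.40 (adjusted p = 0.279 and 0.394). Irs2, which couples the insulin receptor to Akt, differed by -0.69 (adjusted p = 0.348). The lipid-responsive lipase inhibitor gene Angptl4 read 3.10, 2.49, 2.38 and 2.96 on SD and 4.95, 3.71, 3.47 and 3.07 on HFHS (1.07, adjusted p = 0.303), and the desaturase gene Scd1 differed by 1.92 (adjusted p = 0.521). None of the 30 glucose, 26 insulin and 23 lipid synthesis genes was called. The clock genes Per1 and Ciart differed by -0.75 and -0.87 (adjusted p = 0.508 and 0.363).

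Markers of fat cells were the list with the highest median. None of 14 white adipocyte markers was called, 2 were higher at an unadjusted p under 0.05 (5.36% of all genes), 13 lay above the median gene (as 50% of genes do), and the median difference was 1.59, against 0.47 in WT. Leptin (Lep), the hormone of white fat, read -2.88, -2.49, -5.90 and -2.92 on CB1KO_SD and 1.25, -1.79, -1.04 and 0.09 on CB1KO_HFHS (3.18, adjusted p = 0.301), without overlap. The value of -5.90, on SD replicate 3, lies below the dimmest signal called well above background on that array, -4.22. Leaving out any 1 array kept the Lep difference between 2.39 and 3.65. Sncg read 2.25, 1.77, 1.50 and 1.57 against 4.18, 3.09, 2.36 and 3.53 (1.52, adjusted p = 0.171), also without overlap. Adiponectin (Adipoq) overlapped, at 3.13, 2.59, -1.19 and 1.91 against 5.49, 2.96, 2.59 and 3.85. The summed intensity of the 14 markers, in which the brightest members weigh most, ran from 443 to 550.4 on SD and from 627 to 706 on HFHS. Their mean log2 level overlapped, at 0.06 to 2.49 on SD and 1.98 to 3.92 on HFHS. On each array 11 to 14 of the markers stood well above background. The list mean was highest on HFHS replicate 1 and lowest on SD replicate 3, and the list median was 1.15 without the former and 0.79 without the latter. Scd1 and Angptl4 are also made by fat cells, whose part in their levels was not tested.

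Macrophage markers lay above the median gene in 17 of 17 cases, with a median of 0.58, against -0.19 in WT. None was called, and 1 was higher at an unadjusted p under 0.05 (5.36% of all genes). That marker was Cd74, the invariant chain of class II antigen presentation, which read 4.83, 3.01, 3.10 and 4.06 on SD and 5.20, 5.16, 5.03 and 4.75 on HFHS (1.29, adjusted p = 0.232). Their summed intensity ran from 90.6 to 151 on SD and from 139.9 to 232 on HFHS, the highest being replicate 1. The list median was 0.31 without that array and 1.49 with it alone. Interferon response genes had a positive difference in 23 of 26 cases (11767 of all 29011 genes did), with a median of 0.49 (0.29 in WT). None was called, and 7 were higher at an unadjusted p under 0.05 (5.36% of all genes). The tetherin gene Bst2 read 0.69, 0.54, 0.59 and 1.16 against 1.94, 3.13, 1.77 and 1.59 (1.37, adjusted p = 0.262). The interferon median was 0.18 without HFHS replicate 2, whose list mean of 1.04 exceeded those of the other HFHS arrays (-0.29 to 0.15), and the means of replicates 3 and 4 lay within the SD range. Collagen and matrix genes had a median of 0.41, with Col4a2 of the basement membrane differing by 0.78 (adjusted p = 0.223), but 0.05 when both arrays of unusual signal spread were left out. Fibroblast markers had a median of 0.49, and also 0.05 without those arrays. With only HFHS replicate 1 left out both medians were 0.23, and with only SD replicate 2 left out the fibroblast median was 0.28. The medians of neutrophil, T cell and B cell markers (-0.47, -0.10 and -0.22) had no stable sign, being 0.07, 0.34 and 0.19 without the arrays of unusual signal spread, and no member was called. The B cell gene Ms4a1 differed by 1.86 (adjusted p = 0.279), above background on 1 SD array, and the T cell gene Cd3d, above background on no SD array, was at least 1.37-fold higher on HFHS (adjusted p = 0.307).

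**Figure D4:**
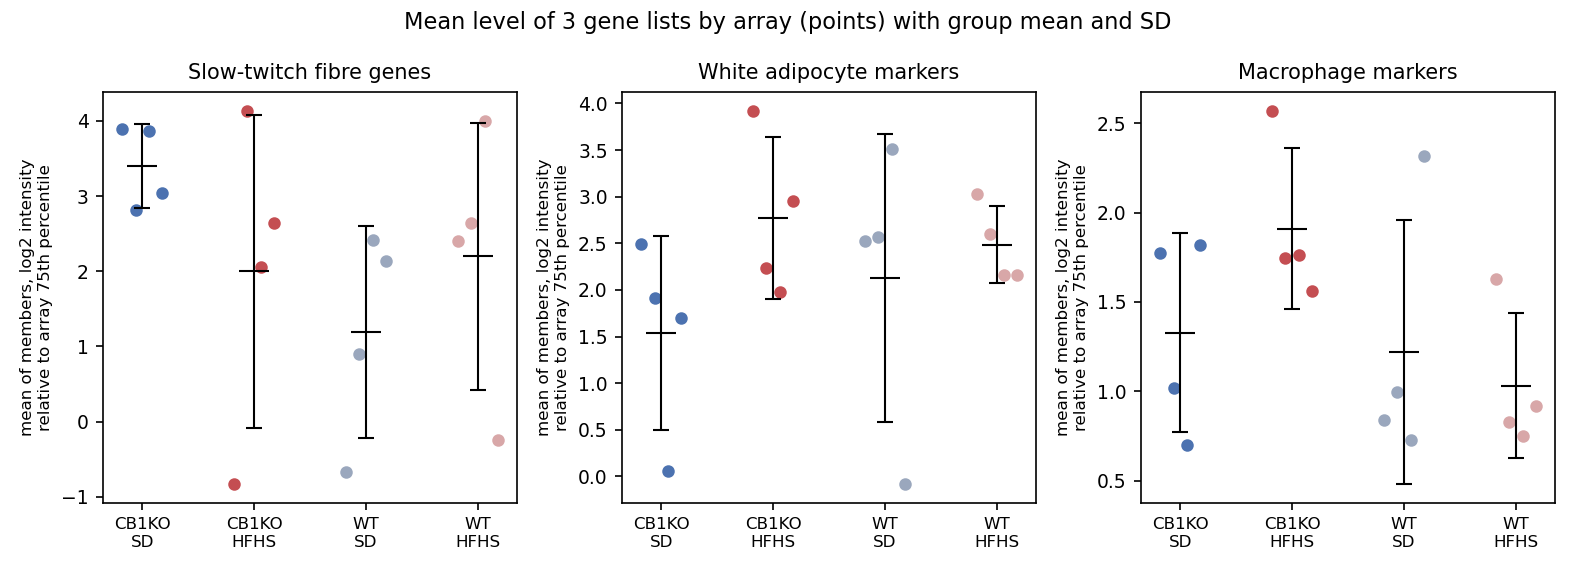
Mean log2 intensity, relative to the array's 75th percentile, of 17 slow-twitch fibre genes, 14 white adipocyte markers and 17 macrophage markers (y axes) on each array (points) of the 4 groups (x axes), with the group mean and SD (n = 4). CB1KO_HFHS replicate 1 is the array at -0.83 in the slow-twitch panel and the highest CB1KO point in the adipocyte and macrophage panels, at 3.92 and 2.57.

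Set against WT, no gene had a diet effect that differed between the genotypes after adjustment (0 of 29011 by limma, with 1052 at an unadjusted p under 0.05, 2.1% of genes higher and 1.53% lower), and in WT itself 0 genes passed (1757, or 6.06%, at an unadjusted p under 0.05, 2.1% higher and 3.95% lower). WT arrays of the diets did not overlap for 2.03% of genes higher and 3.36% lower on HFHS. The 5 genes with the smallest p for the difference were Hspa1a, Nkx6-2, Slc38a11, Gsdma and Oc90, the last 4 all at adjusted p = 0.842. Gsdma, a gasdermin gene, read -1.46, -1.17, -1.79 and -0.60 on CB1KO_SD and -0.26, 0.61, 1.20 and 0.13 on CB1KO_HFHS (1.68), with a difference of -0.81 in WT. The amino acid transporter gene Slc38a11 differed by -0.58 in CB1KO and 0.40 in WT. Nkx6-2, a homeobox gene, stood above background on no CB1KO_SD array and 2 CB1KO_HFHS arrays, too dim for a difference to be given. Oc90 stood above background on no CB1KO_SD array and was at least 1.59-fold higher on CB1KO_HFHS, a bound set by the dimmest signal called well above background on the SD arrays. Like Sln, it was highest on CB1KO_HFHS replicates 2 to 4, the arrays that stand apart in pancreatic transcripts, by 1.18 over all others.

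**Figure D5:**
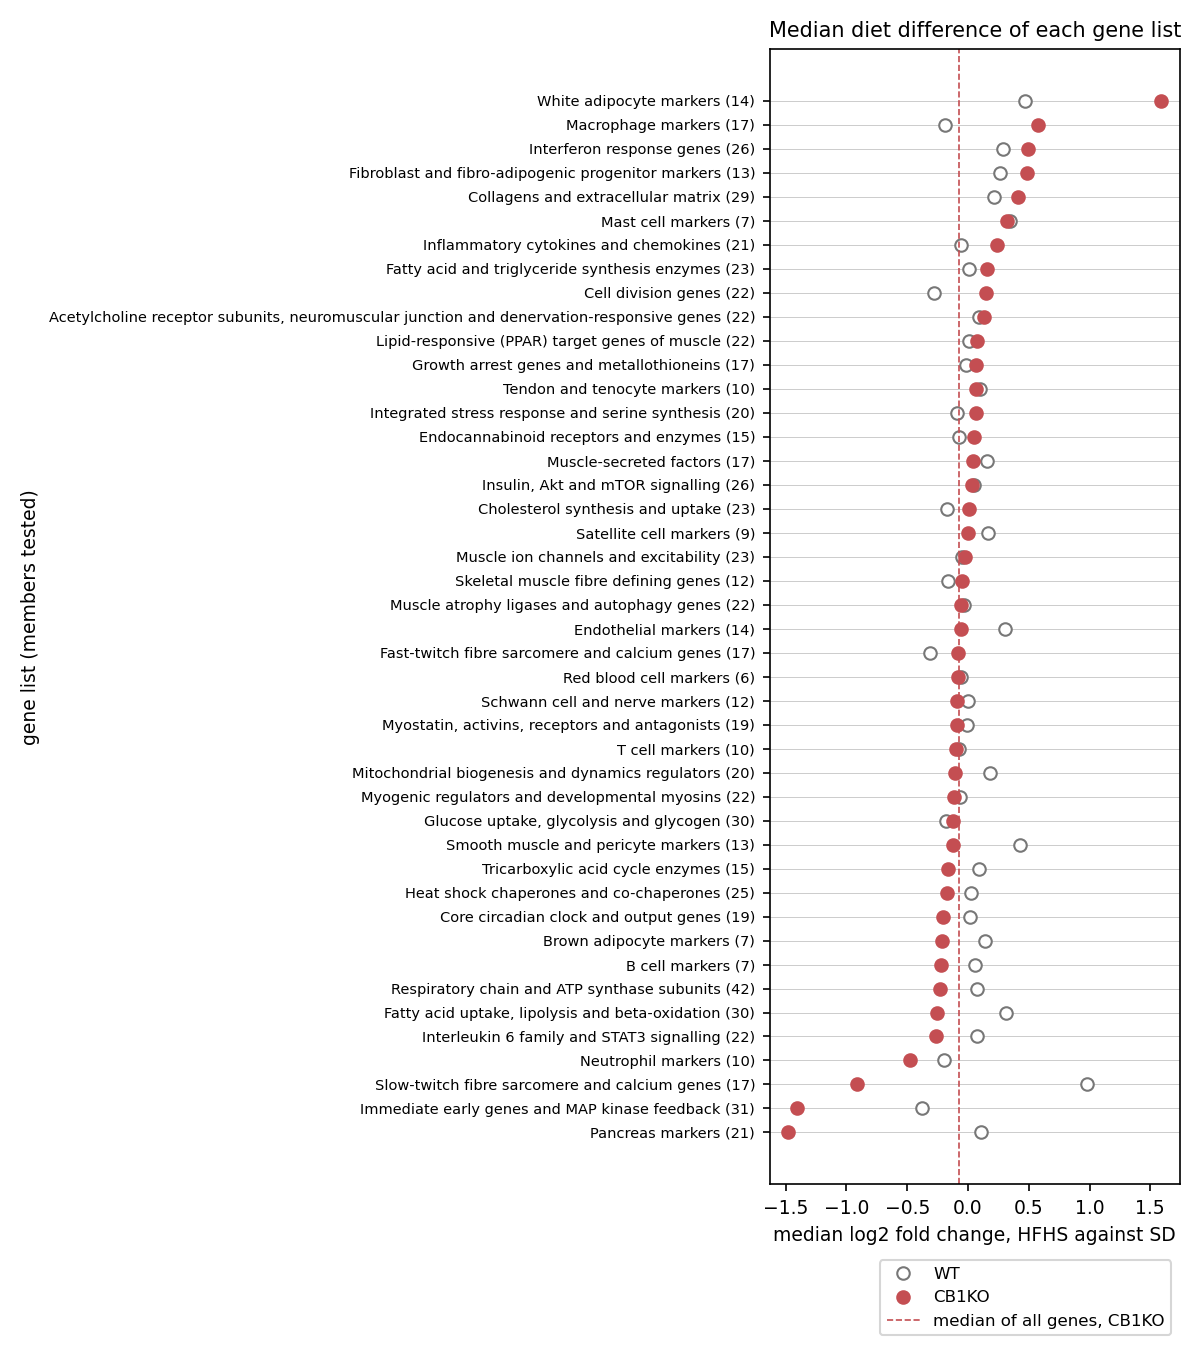
Median log2 difference between HFHS and SD (x axis) of each gene list (y axis, members tested in brackets) in CB1KO (filled) and WT (open), with a dashed line at the CB1KO median of all genes, -0.07. White adipocyte markers lie highest in CB1KO at 1.59, and pancreas markers (-1.48), immediate early genes (-1.41) and slow-twitch genes (-0.92) lowest, while slow-twitch genes lie highest in WT at 0.98.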

How the data were processed

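Total RNA of flash-frozen muscle was labelled with Cy3 and hybridised to 1 Agilent array per sample, per the labels' protocols. The deposited scanner files hold spot intensity values made with Feature Extraction 11.5.1.1, per the file headers. Background is already subtracted in these values, and arrays are not yet brought to a common scale. The deposited series table holds a score, which equals each array's z-score of log2 processed intensity to within 0.00502 and was used only as an alternative.

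The log2 processed intensity of non-control spots minus the array's 75th percentile was analysed. Outlier spots, 116 to 247 of the 59305 non-control spots per array, were set to missing and repeated spots averaged. Of the gene values then tested 0.0177% were missing. A probe was kept if at least 4 of 16 arrays had it well above background, and the brightest stood for each gene. Probes took current symbols from RefSeq (GRCm38.p6) by accession: 28026 of 55681 matched and the rest kept the file's identifier. All 16 arrays entered 1 limma model with a mean for each group (limma 3.58.1, R 4.3.3, lmFit and eBayes), two-sided, with Benjamini-Hochberg adjustment over 29011 genes. Cnr1, Il6 and Mstn also got exact permutation tests. The model was also run on simulated arrays with independent noise, which held none of the arrays that stood apart. That run cannot show how the calls depend on those arrays. The number of arrays limits the precision.

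The genes named are Cnr1, Il6 and Mstn, called genes with a symbol (up to 15 per direction, filled to 10 by p among genes whose arrays do not overlap), up to 4 members of each list by p, and 5 by the p of the difference between genotypes. Genes outside this rule are named after their values were seen: Fos, Fosb, Egr1 and Egr2, the pancreatic genes, chaperones named as unmoved, Adipoq, Arc and features without a symbol. The 43 gene lists, the members and the tests were chosen with earlier results of these data known. Lists are described by counts and medians, with no test. Alternatives covered normalization, filters, probes, variance models, array weights, a replicate block and each array left out. No sequence of the probes or the deleted Cnr1 part was used here.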

Additional observations from a re-analysis of the deposited data

Results flagged for a closer look

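In 290 sets of 4 CB1KO arrays (genes named, list means and array summaries), 13 held an array whose gap to the nearest other exceeded Dixon's 95% critical value. That is 4.48%, no more than the 1 in 20 that chance gives, so the values below are listed as a description. On CB1KO_HFHS replicate 4, 3 stress genes were higher than on the other 3 HFHS arrays: Il6 at -2.14 (others -3.53 to -3.44), Jun at 5.73 (5.21 to 5.27) and Egr1 at 3.57 (0.60 to 0.77). On CB1KO_HFHS replicate 1, Try4 was at 0.15 (others -6.29 to -5.38), the cation channel gene Trpv1 at -4.49 (-3.91 to -3.84) and the mean of the myostatin and activin list at 1.49 (1.02 to 1.09). On CB1KO_HFHS replicate 3, AK080805 was at -1.07 (-1.24 to -1.22).

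Among the CB1KO_SD arrays, replicate 2 had the lowest SD of log2 signal, 2.89 (others 3.56 to 3.62), the lowest Acot1, 2.08 (2.98 to 3.15), and the highest mean of fast-twitch fibre genes, 8.41 (7.90 to 7.94). Replicate 3 had the lowest Lep, -5.90 (-2.92 to -2.49), replicate 4 the highest Has1, 1.71 (-0.54 to -0.16), and replicate 1 the highest level of the citrate carrier gene Slc25a1, -1.23 (-2.22 to -2.11).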

How the results depend on the processing

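Under 29 alternatives, 16 of which leave out 1 array, the count of genes called for diet in CB1KO (8) was 2 with quantile normalization, 2 with normexp and quantile normalization, 3 with the deposited table (2 higher, 1 lower), 4 with no filter, 14 with the filter on all CB1KO arrays, 3 with the mean of probes, 1 with trend and robust variances, 137 with array weights (75 higher, 62 lower), 23 without both arrays of unusual spread, 15 with each array's signal spread as covariate, 0 with only these groups (1623 at an unadjusted p under 0.05), 2 with CB1KO_HFHS replicate 1 alone in its group (an alternative chosen after seeing the data, in which the lone array is assumed to vary like the other groups), and 0 to 28 with 1 array left out. Same-numbered CB1KO arrays deviated together with r of 0.48, 0.61, -0.14 and -0.14. Arrays of different number did so with r from -0.70 to 0.47. Whether the numbers mark pairs cannot be told from these few values. The replicate block gave 0 calls (2614 at an unadjusted p under 0.05). For diet in WT (0) the count was 91 with array weights, 1 without both unusual arrays and 0 to 1 with 1 array left out. For the difference between genotypes (0) it was 1 with normexp, 10 without both unusual arrays and 0 to 11 with 1 array left out. All 8 called genes lost the threshold under at least 1 alternative, and 29 of the other 91 genes followed passed under at least 1. Only 6 of 99 genes changed sign: Cnr1 without both unusual arrays (-0.030), and with CB1KO_HFHS replicate 1 alone Mstn (0.059), Try4 (0.68), Ins1 (0.11), Cpb1 (0.64) and Amy2a5 (0.54). The cause was not tested. The median of all genes was -0.07, and 0.04 with the deposited table. The dimmest signal called well above background ran from -5.14 to -2.74 on the CB1KO arrays, which limits genes such as Nkx6-2 and Oc90.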
